A study of Mus musculus with 6 samples.

Results

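The genes described here are the MHC class II genes and Ciita, 10 genes picked by symbol from a count table of 54838 gene identifiers. They comprise Ciita, the classical chains H2-Aa, H2-Ab1 and H2-Eb1, the invariant chain gene Cd74, the H2-DM genes H2-DMa, H2-DMb1 and H2-DMb2, and the H2-O genes H2-Oa and H2-Ob. All 10 were found in the table and all 10 passed the filter on low counts. They were proposed because values of the comparison of Cpd10 with DMSO were already known, so their levels and fold changes in that comparison are given as a description, with no test of their own.

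The data were gene counts from poly A selected RNA of 6 libraries of mouse splenic B cells. One group of 3 libraries came from cultures given 1 µM Cpd10, described in the labels as inhibiting the transcription factor FOXO1, and the other group of 3 from cultures given the solvent DMSO. All cells had been sorted as naive B cells from 10 male mice, 3 months old, that were killed 9 days after immunisation with sheep red blood cells (SRBC). The mice came from 2 independent experiments and their cells were pooled before culture. Every culture received mouse interleukin 4 at 80 ng/ml and an antibody against CD40 at 5 µg/ml for 5 days in embryonic stem cell medium, and Cpd10 or DMSO was added on day 3, so that exposure lasted 48 hours. The mouse strain, and what the replicate letters A, B and C stand for, are not given in the sources used here. The errors given therefore measure how far these libraries differ, and part of that may be technical. An effect of Cpd10 other than on FOXO1 cannot be told apart from one on FOXO1.

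MHC class II molecules are pairs of an alpha and a beta chain that show peptides from endocytosed proteins to CD4 T cells. The chains assemble with the invariant chain, which blocks the groove and guides the complex to endosomes. There H2-DM exchanges the last fragment of the invariant chain for peptides, and H2-O, made mainly by B cells, restrains H2-DM. CIITA binds no DNA itself. It docks on RFX, CREB and NF-Y factors that sit on the X1, X2 and Y boxes just upstream of class II genes, and it is the switch for the whole set. Its own gene has several promoters with their own first exons, which gene counts pool.

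The 8 class II chain genes lie within 224 kb of chromosome 17 (GRCm38, 34092340 to 34316674), in the order H2-Oa, H2-DMa, H2-DMb2, H2-DMb1, H2-Ob, H2-Ab1, H2-Aa, H2-Eb1. Ciita is on chromosome 16 (10480059 to 10528418). RefSeq promoter windows (GRCm38.p6), each of 300 bases from 250 before the start, were at hand for 7 of the 10 genes. The stretches below are shown because they hold a Y box core, most of them with another of the box sequences through which CIITA is known to act. H2-DMb2 holds the Y box core alone. The Y box core of H2-DMb1, 61 bases before its start, is not shown since the stretch lay mostly in annotated exons. That of the second H2-DMa window is not shown either. Each starts 40 bases before a Y box core and is written on the gene's own strand. Capitals mark AGCAAC (from the X1 box), ATTGG (the Y box core CCAAT read from the other strand) and TGACG with its complement CGTCA (the X2 box core), which overlap in H2-Aa. H2-Eb2, a class II beta chain gene outside the 10, is added for comparison.
H2-Aa, chr17:34287863-34287911, minus strand: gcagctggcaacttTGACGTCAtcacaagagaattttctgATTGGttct
H2-Eb1, chr17:34305768-34305816, plus strand: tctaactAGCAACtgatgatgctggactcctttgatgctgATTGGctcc
H2-Oa, chr17:34092296-34092344, plus strand: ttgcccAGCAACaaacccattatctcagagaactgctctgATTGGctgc
H2-Ob, chr17:34238808-34238856, plus strand: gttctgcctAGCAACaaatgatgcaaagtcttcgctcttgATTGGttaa
H2-DMb2, chr17:34145119-34145167, plus strand: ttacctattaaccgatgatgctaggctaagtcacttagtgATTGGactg
H2-Eb2, chr17:34325535-34325583, plus strand: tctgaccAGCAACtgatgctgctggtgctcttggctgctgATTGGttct

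The Y box core was found, on either strand, in a window of each of the 7 genes, between 35 and 198 bases before the start. It also occurs in 37.4% of all 32851 promoter windows. AGCAAC was found in H2-Eb1, H2-Oa and H2-Ob, and in H2-Eb2, against 14.8% of all windows, and the X2 core TGACG in H2-Aa, against 20.8% of all windows. In H2-Eb1, H2-Oa and H2-Ob the first letter of AGCAAC lay 33, 34 and 31 bases before the first letter of ATTGG, and 33 in H2-Eb2. A spacing of 20 to 40 bases, a range chosen after these promoters were read, was found in 0.341% of all windows. H2-DMa had 2 windows. The first held none of the 3 words and the second held a Y box core 198 bases before its start. An exact match is a description of the letters and not a measured binding site.

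**Figure D1:**
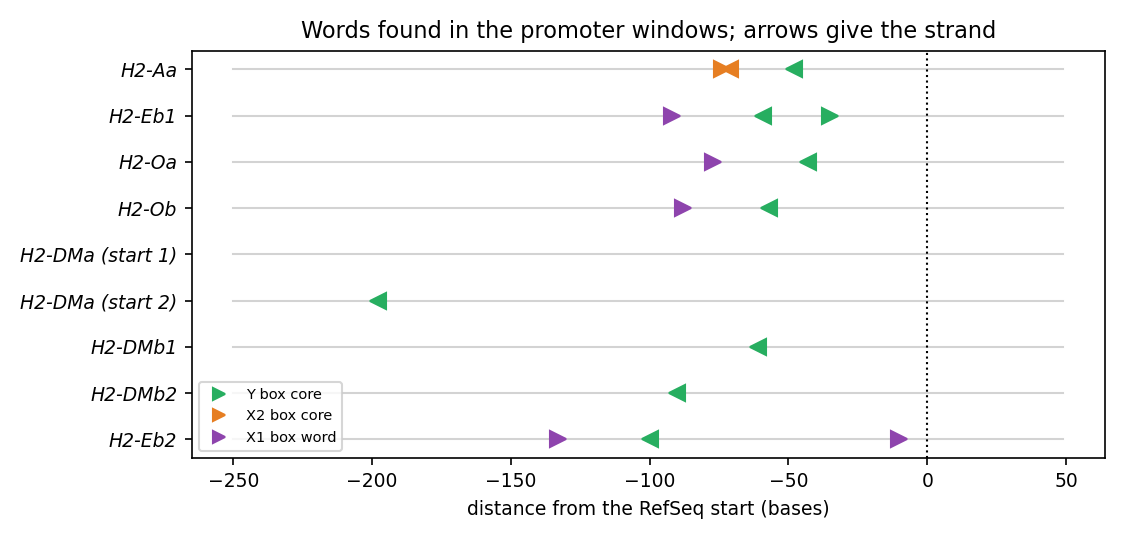
Position of the X1, X2 and Y box words in the RefSeq promoter windows of 7 class II genes and H2-Eb2, as distance from the start in bases; right-pointing triangles are words on the gene's strand and left-pointing triangles words on the other strand. The Y box core of H2-Eb1, H2-Oa, H2-Ob and H2-Eb2 follows the X1 word by 31 to 34 bases.

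Library totals ran from 38110927 to 44859930 counts with Cpd10 and from 36873204 to 42798114 with DMSO. Levels are CPM, counts scaled to a common library size with TMM factors, and between genes they are compared per kilobase of exon. The libraries also grouped across the treatment into 2 sets, with Cpd10 A beside DMSO A and DMSO C, and Cpd10 B and Cpd10 C beside DMSO B. In that split 9 genes had 3 counts or fewer in each library of one set and 50 or more in each of the other, and no other split of 3 and 3 had more than 1 such gene. The sets are not in the labels and were found in these counts, so the differences of the 10 genes are also given within them.

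Class II transcripts were abundant in both groups. The 10 genes together took 1.22%, 1.35% and 1.25% of all counts in Cpd10 A, B and C, against 1.76%, 1.495% and 1.90% in DMSO A, B and C. Each Cpd10 library was thus below each DMSO library. Per kilobase, Cd74 averaged 4133 ± 376 CPM with Cpd10 and 4879 ± 458 CPM with DMSO (mean ± SD, n = 3 each, as throughout), which placed it 4th and 3rd of 15132 genes.

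The order of levels below Cd74 was nearly the same in both groups. With Cpd10, H2-Ab1 (553 ± 31.6 CPM per kilobase), H2-Eb1 (550.3 ± 77.2) and H2-Aa (491 ± 19.96) lay close together, and the levels of H2-Ab1 and H2-Eb1 differed by less than their spread. H2-DMb2 (368 ± 17.9), H2-DMa (156 ± 19.7) and H2-DMb1 (57.3 ± 1.47) followed. H2-Oa (33.3 ± 2.05) and H2-Ob (31.0 ± 1.13) came after, with H2-Oa above H2-Ob in each Cpd10 library, and Ciita was lowest (14.2 ± 1.28). The order of H2-Oa and H2-Ob depends on the gene length used. The exon union of H2-Ob is 5380 bases and its longest transcript 2670, against 1407 and 1340 for H2-Oa. With DMSO, H2-Eb1 (944 ± 109 CPM per kilobase) and H2-Ab1 (913 ± 172) were within their spread of each other and above H2-Aa (591 ± 81.7). H2-DMb2 (476 ± 39.7), H2-DMa (202 ± 14.3) and H2-DMb1 (76.6 ± 13.7) came next. H2-Ob (52.7 ± 10.97) and H2-Oa (49.1 ± 7.92) differed by less than their spread, and Ciita (39.0 ± 10.1) was again lowest. Among 15132 genes ranked by level per kilobase, Ciita stood 3723rd with Cpd10 and 1378th with DMSO.

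**Figure D2:**
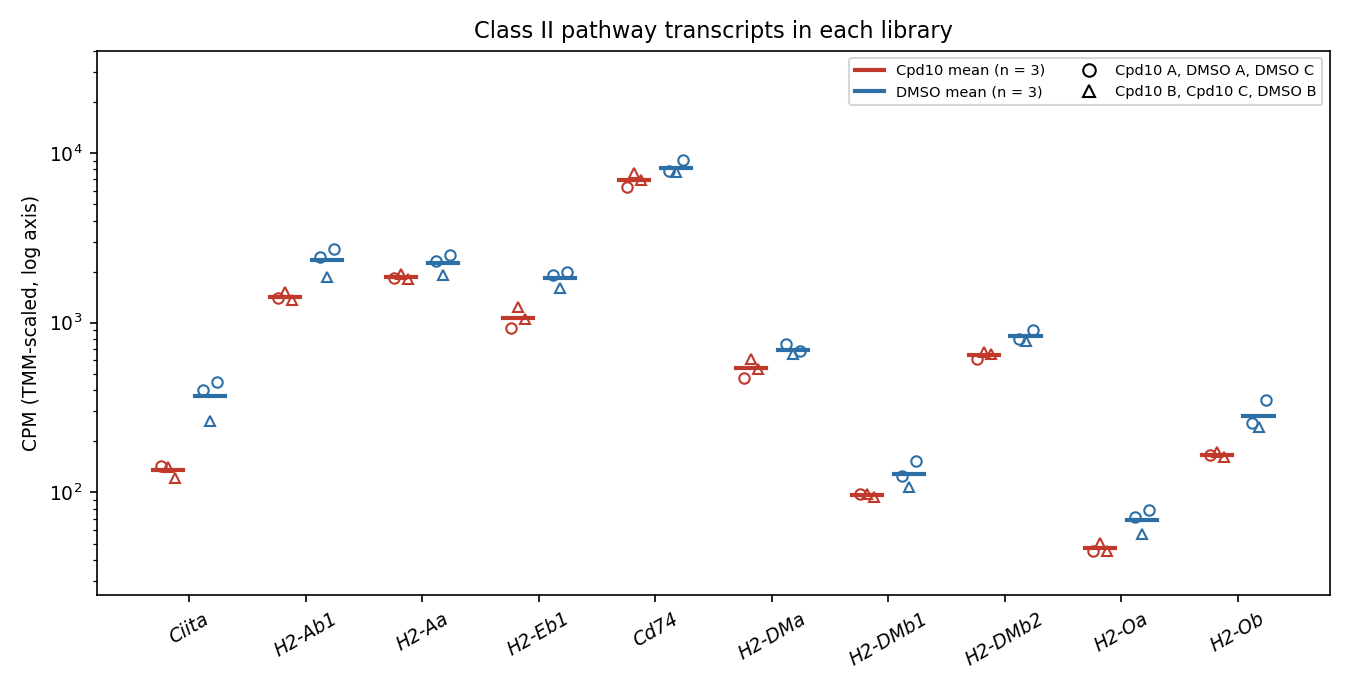
CPM (log axis) of the 10 genes in each library, Cpd10 left of DMSO, with group means as bars (n = 3) and the 2 library sets as circles and triangles. Only H2-Aa has a Cpd10 library above a DMSO library, and DMSO B is the lowest DMSO library for every gene.

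Ciita, the coactivator, had the largest difference of the 10. It stood at 144, 141 and 121 CPM in Cpd10 A, B and C, against 401, 265 and 450.2 CPM in DMSO A, B and C. The groups did not overlap, the Cpd10 libraries lay close together, and DMSO B was the lowest of its group. The level with Cpd10 was 0.364 times that with DMSO (log2 fold change -1.46, SE 0.20). Ciita shares 329 exon bases, 3.45% of its exons, with Dexi on the other strand, and the strand setting of the counts is not known here. Dexi had 1332 to 1646 counts with Cpd10 and 1554 to 2586 with DMSO, against 4559 to 6525 and 9623 to 18507 for Ciita.

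Among the classical chains, H2-Ab1, the beta chain of the A molecule, stood at 1401, 1510.4 and 1352 CPM with Cpd10, against 2449, 1859.9 and 2725 CPM with DMSO. H2-Eb1, the beta chain of the E molecule, stood at 931, 1229 and 1049 CPM with Cpd10, against 1907, 1598 and 2003 CPM with DMSO. Neither gene's groups overlapped, and Cpd10 levels were 0.606 and 0.583 times those with DMSO (log2 fold changes -0.72, SE 0.17, and -0.78, SE 0.16). H2-Aa, the alpha chain that pairs with H2-Ab1, stood at 1844, 1949 and 1802 CPM with Cpd10, against 2324, 1903 and 2508 CPM with DMSO. Here Cpd10 B lay above DMSO B, and the log2 fold change was -0.27 (SE 0.15).

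The alpha and beta chain transcripts of the A molecule thus differed by unequal amounts. The ratio of H2-Aa to H2-Ab1 per kilobase within a library does not depend on library size or scaling. It was 0.890, 0.872 and 0.901 in Cpd10 A, B and C, against 0.642, 0.692 and 0.622 in DMSO A, B and C. All Cpd10 ratios lay above all DMSO ratios, and the spread within each group (SD 0.0144 with Cpd10 and 0.0358 with DMSO) was small beside the difference of the means, 0.888 with Cpd10 and 0.652 with DMSO. Within the set that holds DMSO B the ratios were 0.872 and 0.901 with Cpd10, against 0.692 with DMSO, and within the other set 0.890 with Cpd10, against 0.642 and 0.622 with DMSO.

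Cd74, the invariant chain, lies on chromosome 18 (GRCm38, 60803848 to 60812652) and was the most abundant of the 10. Cd74 and H2-Aa had the fold changes nearest to 1. Their order depended on the fit, with -0.25 for Cd74 and -0.21 for H2-Aa once the library set was in the model. Cd74 stood at 6330.1, 7592 and 6895 CPM with Cpd10, against 7783, 7714 and 9079 CPM with DMSO (log2 fold change -0.24, SE 0.18). The groups were only just apart, since Cpd10 B reached 98.4% of DMSO B. The ratio of Cd74 to the summed classical chains per kilobase was 2.50, 2.61 and 2.67 in Cpd10 A, B and C, against 1.82, 2.24 and 1.96 in DMSO A, B and C. The ratio of the summed classical chains to Ciita was 100.2, 117 and 121 with Cpd10, against 60.6, 73.7 and 58.3 with DMSO. Both ratios were higher in every Cpd10 library than in any DMSO library. No ratio was tested, since an exact two-sided permutation test of 3 against 3 cannot go below 0.10.

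The H2-DM genes, whose products edit the bound peptide, differed by less than Ciita and the beta chains. H2-DMa, the alpha chain, stood at 472, 608 and 535 CPM with Cpd10, against 748, 651 and 685 CPM with DMSO. H2-DMb2 stood at 608, 669 and 652 CPM with Cpd10, against 807, 777 and 909 CPM with DMSO, and H2-DMb1 at 98.1, 97.5 and 93.5 CPM, against 125, 108 and 154 CPM. The groups overlapped for none of the 3, with log2 fold changes of -0.37 (SE 0.13), -0.37 (SE 0.12) and -0.42 (SE 0.13) for H2-DMa, H2-DMb2 and H2-DMb1. H2-DMb1 and H2-DMb2 both encode beta chains, and their longest annotated transcripts were 94.3% identical over 1211 aligned bases. Of the 50-base words of the H2-DMb1 transcript 27.2% also occur in H2-DMb2 transcripts, so how reads were shared between these copies is uncertain. H2-DMa shares 360 exon bases, 10.4% of its exons, with Brd2 on the other strand, and the sources used here do not state whether counting used the strand. Brd2 had 15381 to 20941 counts with Cpd10 and 15528 to 20644 with DMSO, against 20092 to 23961 and 23665 to 33418 for H2-DMa. The part of Brd2 reads in the H2-DMa counts was not tested.

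The H2-O genes, whose products hold H2-DM back, had larger fitted differences than the H2-DM genes. H2-Oa and H2-DMb1 were not clearly apart. With 1 library left out, their log2 fold changes ran from -0.68 to -0.45 and from -0.53 to -0.27. H2-Ob, the beta chain, stood at 165, 174 and 162 CPM with Cpd10, against 255, 243 and 351 CPM with DMSO (log2 fold change -0.76, SE 0.15). H2-Oa, the alpha chain, stood at 45.0, 50.2 and 45.5 CPM with Cpd10, against 71.4, 57.0 and 79.0 CPM with DMSO (log2 fold change -0.56, SE 0.14). Neither gene's groups overlapped. The ratio of summed H2-DM to summed H2-O per kilobase was 8.66, 9.08 and 9.36 in Cpd10 A, B and C, against 7.67, 8.14 and 6.68 in DMSO A, B and C, with means of 9.03 ± 0.351 and 7.49 ± 0.746. H2-Oa shares 22.8% of its exon bases with the antisense gene BC051537, which had 1 to 20 counts in Cpd10 libraries and 14 to 82 in DMSO libraries, against 1708 to 3247 for H2-Oa over all libraries.

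**Figure D3:**
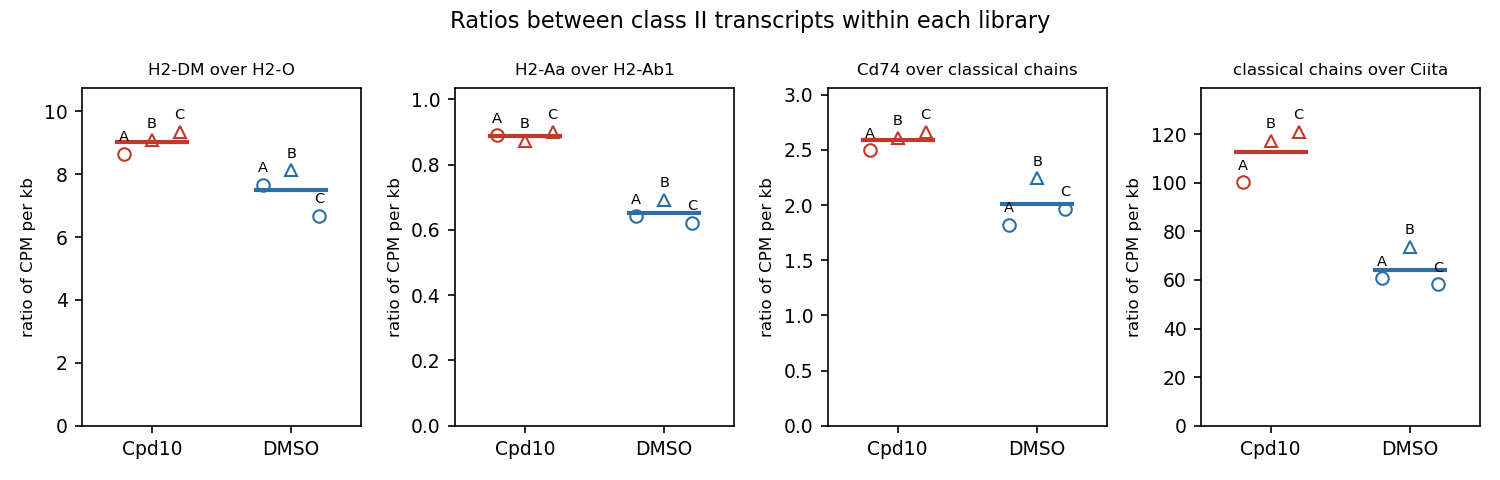
Ratios of CPM per kilobase within each library, Cpd10 left of DMSO, with the replicate letter beside each point and group means as bars (n = 3); classical chains are H2-Aa, H2-Ab1 and H2-Eb1 summed. Every Cpd10 library lies above every DMSO library in all 4 ratios.

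As a set, all 10 genes had a negative log2 fold change, with a median of -0.49, beside a median of -0.00118 over all 15136 tested genes, of which 50.2% were negative. For 9 of the 10, all Cpd10 libraries lay below all DMSO libraries, which held for 7.32% of tested genes. Ciita was the 1 gene of the 10 called by edgeR's quasi-likelihood test at an adjusted p under 0.05, where 0.370% of all tested genes were called and 0.0529% were called lower. Since this contrast is what brought the genes forward, nothing is read from these counts. The call of Ciita was lost when any 1 library other than DMSO B was left out, and its log2 fold change then ran from -1.496 to -1.30; without DMSO B it was -1.65. The share of all tested genes called also changed with the library left out. It was 0.488%, 0.00633% and 0% without Cpd10 A, B and C, and 0.0318%, 0.632% and 0.00635% without DMSO A, B and C. DESeq2 called 4 of the 10 lower (Ciita, H2-Ab1, H2-Eb1 and H2-Ob), where it called 1.42% of all genes and 0.602% lower. Limma-voom called 1 of the 10, Ciita, and 0.304% of all genes. edgeR without the filter called the same 4 as DESeq2, and 0.773% of all genes, and with the replicate letter as a block it called 0 of the 10 and 0.324% of all genes.

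Within the library sets every one of the 10 remained lower with Cpd10, as did 32.3% of all tested genes. In the set of Cpd10 A, DMSO A and DMSO C the differences in mean log2 CPM ran from -1.56 (Ciita) to -0.39 (H2-Aa). In the set of Cpd10 B, Cpd10 C and DMSO B they were nearer to 0 for each gene, from -1.02 (Ciita) to -0.022 (H2-Aa), with -0.092 for Cd74. Each set has 1 library of one of the groups, so these differences have no test. When the library set was added to the model, edgeR called 6 of the 10 lower, where it called 3.96% of tested genes, 1.64% lower: Ciita, H2-Ab1, H2-Eb1, H2-Oa, H2-Ob and H2-DMb2. The set was chosen from these counts, so calls from that fit are exploratory.

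**Figure D4:**
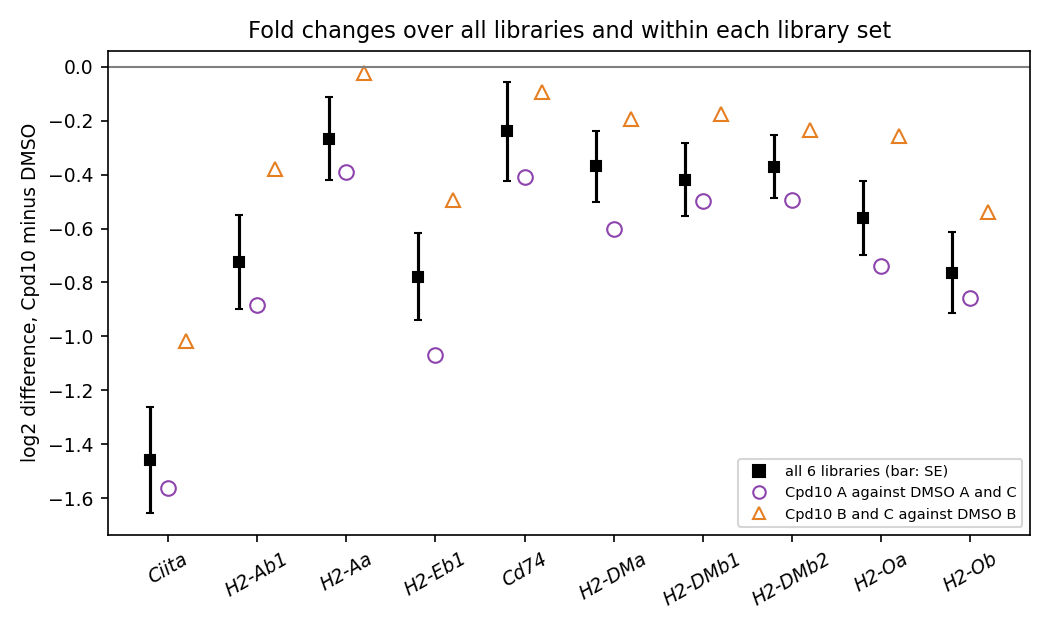
Log2 difference of Cpd10 minus DMSO for each of the 10 genes over all 6 libraries (squares, bars are SE) and within each library set (circles and triangles, no test). All points lie below 0, and for each gene the set that holds DMSO B gives the value nearest to 0.

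Of the other class II loci, H2-Eb2, whose promoter is shown above, stood at 46.7, 50.8 and 44.3 CPM with Cpd10, against 77.0, 73.2 and 104 CPM with DMSO, with no overlap. The log2 fold change was -0.84 (SE 0.15), which did not pass in edgeR (adjusted p = 0.0870). DESeq2 called it lower (adjusted p = 6.82e-04), as did edgeR once the set was in the model (adjusted p = 0.0100). The difference was -0.94 in the set of DMSO A and DMSO C and -0.63 in the set of DMSO B. H2-Ea-ps, annotated as a pseudogene of the E alpha chain, had 0, 1 and 0 counts with Cpd10 and 2, 3 and 13 counts with DMSO and was not tested. H2-Eb1, the E beta chain, had 39410 to 48476 counts with Cpd10 and 58062 to 85149 with DMSO. Its transcript was thus seen almost without one of an E alpha chain, and whether an E molecule forms was not tested.

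Among the factors that CIITA docks on, none passed the test. Of 8 enhanceosome genes (Rfx5, Rfxap, Rfxank, Nfya, Nfyb, Nfyc, Creb1 and Atf1) edgeR, DESeq2 and limma-voom called 0, and 1 had an unadjusted p under 0.05 on the higher side, beside 3.86% of all tested genes. That gene was Nfya, the NF-Y subunit that contacts the CCAAT box, at 181, 143 and 162 CPM with Cpd10, against 122, 130.1 and 140.3 CPM with DMSO (log2 fold change 0.31, SE 0.11, edgeR adjusted p = 0.510). Rfx5, the X1 box binding subunit of RFX, averaged 48.3 ± 7.11 CPM with Cpd10 and 52.5 ± 2.99 CPM with DMSO. Atf1 and Nfyc had log2 fold changes of 0.10 (SE 0.11) and -0.14 (SE 0.16). The list median was 0.0035.

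Of 6 coactivator genes, the same tools called 0, and 0 had an unadjusted p under 0.05. Crebbp, a histone acetyltransferase, averaged 79.5 ± 15.5 CPM with Cpd10 and 93.4 ± 3.91 CPM with DMSO (log2 fold change -0.23, SE 0.14). Ncoa1, Carm1 and Smarca4, the last an ATPase of chromatin remodelling complexes, had log2 fold changes of -0.24, 0.17 and -0.08. The list median was -0.099.

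Of 13 regulators of the Ciita promoters, edgeR, DESeq2 and limma-voom called 0, and 1 had an unadjusted p under 0.05 on the lower side, beside 4.53% of all tested genes. This was Irf8, an interferon regulatory factor that partners PU.1 in B cells and myeloid cells. It stood at 364, 354 and 343 CPM with Cpd10, against 520.1, 433 and 513 CPM with DMSO, with no overlap (log2 fold change -0.47, SE 0.11, edgeR adjusted p = 0.208). Irf4, a factor that B cells raise on activation, stood at 889, 591 and 674 CPM with Cpd10, against 529, 495 and 617 CPM with DMSO, where Cpd10 B lay below DMSO C (log2 fold change 0.39, SE 0.18, edgeR adjusted p = 0.619). In the model that held the library set, edgeR called Irf8 lower (-0.41, adjusted p = 0.0136) and Irf4 higher (0.49, adjusted p = 0.0131), beside 1.64% and 2.32% of tested genes called lower and higher.

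Prdm1, a repressor that silences Ciita in plasma cells, stood at 35.2, 20.4 and 21.02 CPM with Cpd10, against 37.2, 30.4 and 74.3 CPM with DMSO, and the groups overlapped (log2 fold change -0.89, SE 0.38, edgeR adjusted p = 0.604). The highest Prdm1 value was that of DMSO C, which also had the highest Ciita and the highest summed plasma cell markers, a sum that includes Prdm1. A link between these levels was not tested. Irf1, which drives the interferon-responsive Ciita promoter, averaged 38.9 ± 4.63 CPM with Cpd10 and 48.2 ± 7.62 CPM with DMSO (edgeR adjusted p = 0.669). The list median was -0.054. Foxo1, the gene of the factor Cpd10 is labelled to inhibit, stood at 129.8, 115 and 111 CPM with Cpd10, against 137, 122 and 155 CPM with DMSO, and these overlapped; the transcript does not measure the activity of the protein.

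Of 10 genes that prepare peptides or clip the invariant chain, edgeR called 0, with 1 higher and 1 lower at an unadjusted p under 0.05, beside 3.86% and 4.53% of all tested genes. DESeq2 called 1 lower, beside 0.602% of all genes, and limma-voom called 0. Lgmn, the asparagine-specific endopeptidase of lysosomes, stood at 99.0, 153 and 133 CPM with Cpd10, against 237, 233 and 297 CPM with DMSO. Its groups did not overlap, and the level with Cpd10 was 0.501 times that with DMSO (log2 fold change -0.996, SE 0.18, edgeR adjusted p = 0.0859, DESeq2 adjusted p = 6.95e-05). The difference was -1.42 in the set of DMSO A and DMSO C and -0.71 in the set of DMSO B. Ctsc, the dipeptidyl peptidase cathepsin C, stood at 113, 159 and 153 CPM with Cpd10, against 102, 108 and 102 CPM with DMSO (log2 fold change 0.45, SE 0.14, edgeR adjusted p = 0.376). Ctss, the protease that trims the invariant chain in B cells, averaged 209.8 ± 11.6 CPM with Cpd10 and 251 ± 48.1 CPM with DMSO. Ifi30, the lysosomal thiol reductase that opens disulphide bonds, averaged 556 ± 84.6 CPM with Cpd10 and 449.6 ± 67.0 CPM with DMSO. Neither passed (edgeR adjusted p = 0.736 and 0.710). With the library set in the model, edgeR called 3 of the 10 lower, beside 1.64% of tested genes: Lgmn (adjusted p = 0.0499), Ctsl and Ctsd, the last pair named after their values were seen.

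Among 3 genes of surface turnover, March1, the ubiquitin ligase that sends class II molecules from the surface to lysosomes, rose. It stood at 205, 159 and 179 CPM with Cpd10, against 38.1, 54.8 and 52.3 CPM with DMSO. All Cpd10 libraries lay above all DMSO libraries, as for 7.31% of tested genes (log2 fold change 1.90, SE 0.17, edgeR adjusted p = 0.0125, where 0.317% of tested genes were called higher; DESeq2 also called it, with 0.817% called higher). The call was lost without Cpd10 B, without Cpd10 C or without DMSO C (edgeR adjusted p = 0.0711, 0.119 and 0.0660), with log2 fold changes of 1.99, 1.91 and 1.97. Within the sets of DMSO A with DMSO C and of DMSO B, the difference was 2.20 and 1.62. March8, a related ligase, averaged 8.56 ± 1.75 CPM with Cpd10 and 11.2 ± 3.15 CPM with DMSO, and Cd83, which opposes March1, 751 ± 60.1 CPM with Cpd10 and 773 ± 73.1 CPM with DMSO (edgeR adjusted p = 0.793 and 0.959).

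**Figure D5:**
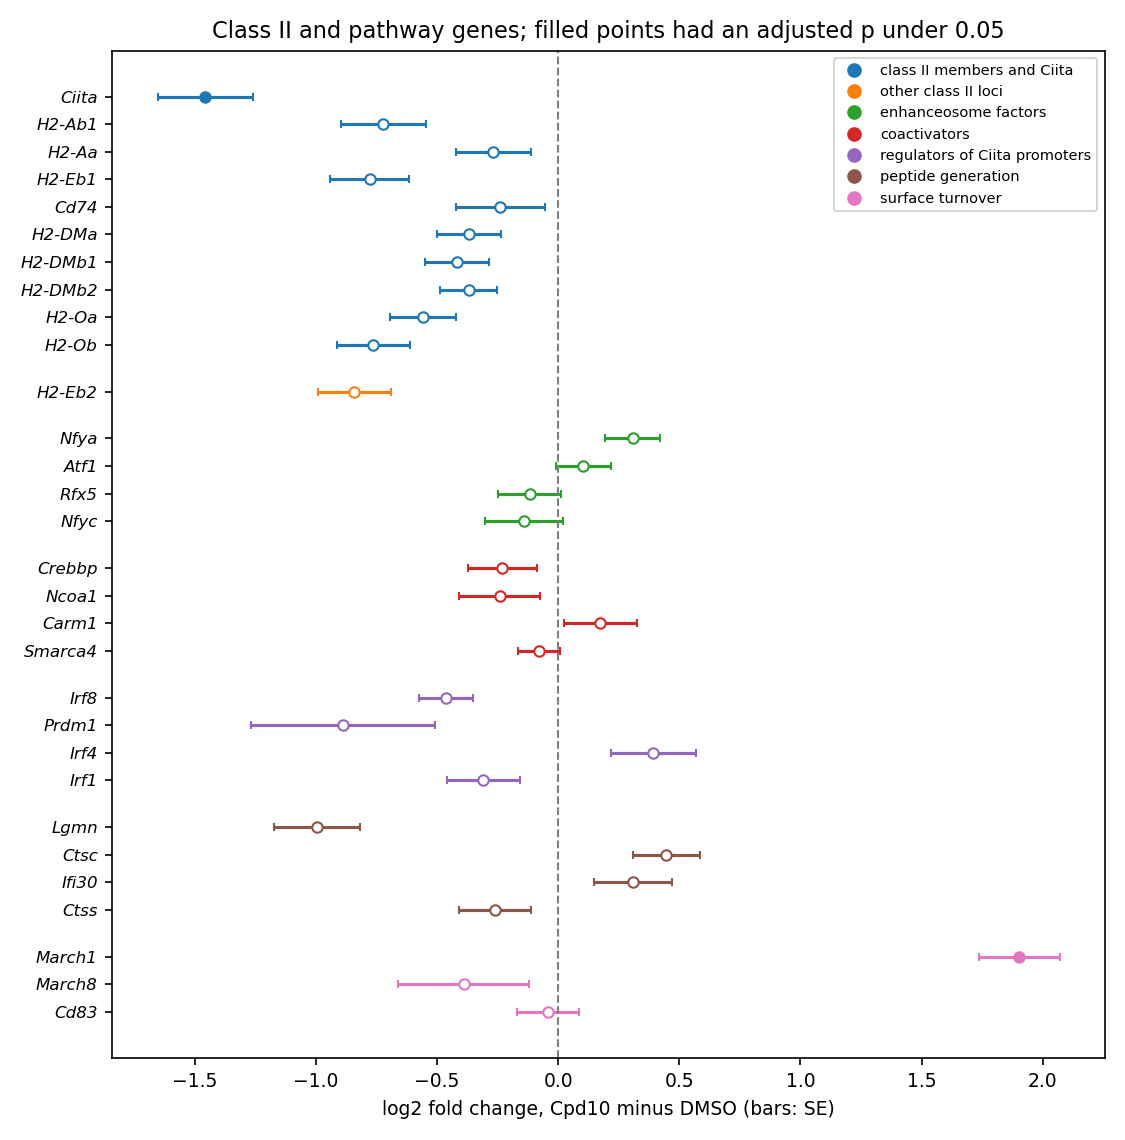
Log2 fold change of Cpd10 minus DMSO with its SE for the 10 genes and the named pathway genes, coloured by list; filled points had an edgeR adjusted p under 0.05 and the dashed line is the median of all tested genes. Ciita (-1.46) and March1 (1.90) are the filled points. Open points of pathway genes lie on both sides, among them H2-Eb2, Lgmn, Prdm1 and Irf8 on the negative side and Ctsc, Irf4, Ifi30 and Nfya on the positive side.

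Over the 6 libraries, the gene whose log2 CPM most resembled that of Ciita among 8486 genes was Irf8 (Pearson r = 0.994). It was followed by Crot, a carnitine acyltransferase of peroxisomes (0.992), Tlr1, a subunit of lipopeptide receptors (0.992), Ass1, an enzyme of arginine synthesis (0.991), and Ubxn4 (0.989). Tlr1 stood at 16.7, 17.4 and 16.0 CPM with Cpd10, against 53.7, 29.1 and 55.2 CPM with DMSO, the same order of groups and the same low DMSO B as Ciita. The mean of H2-Aa, H2-Ab1 and H2-Eb1 was most closely followed by Klf2, a transcription factor of resting lymphocytes (0.999), then by Dirc2 (0.995), Ptpn22, a phosphatase that limits antigen receptor signals (0.991), Ltb, the lymphotoxin beta gene (0.988), and H2-M5, a class I-like gene of the MHC (0.984). Klf2 stood at 24.6, 33.4 and 24.6 CPM with Cpd10, against 80.8, 46.5 and 99.4 CPM with DMSO. These 6 points share the treatment and the library sets, so the values of r describe likeness only.

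In bulk RNA, fewer cells of a type and less RNA per cell cannot be told apart. B cell markers summed to 3999 to 5235 CPM with Cpd10 and 4799 to 5056 CPM with DMSO. Of the 6, 4 had a negative log2 fold change, and edgeR, DESeq2 and limma-voom called 0. On the lower side 1 had an unadjusted p under 0.05, beside 4.53% of all tested genes. Ms4a1 stood at 318, 279 and 284 CPM with Cpd10, against 551, 277 and 556 CPM with DMSO. Ptprc stood at 468, 419 and 434 CPM with Cpd10, all below DMSO (496, 486 and 558 CPM), as for 7.32% of tested genes. Of the 8 macrophage and monocyte markers, Mertk, C1qa, C1qb and Cd163 had 0 counts in all 6 libraries, and Csf1r, Lyz2 and Cd14 had 9 or fewer in any library. The 8 summed to 8.77 to 14.5 CPM with Cpd10 and 13.9 to 21.4 CPM with DMSO, nearly all of it from Adgre1, the one that could be tested. Adgre1 stood at 8.77, 14.2 and 12.96 CPM with Cpd10, against 13.9, 21.1 and 20.5 CPM with DMSO, and the groups overlapped (log2 fold change -0.63, SE 0.24). It was lower at an unadjusted p under 0.05 without passing in edgeR (adjusted p = 0.529), DESeq2 or limma-voom, and edgeR called it lower once the set was in the model (-0.80). Of the 7 dendritic cell markers, Clec9a had 0 counts in every library, and Siglech and Xcr1 had 10 or fewer in any. Zbtb46 (1436 to 1985 counts over all libraries), Flt3 (167 to 1307), Batf3 (628 to 932) and Itgax (60 to 230) were detected. None of these 4 was called by edgeR, DESeq2 or limma-voom, and 0 had an unadjusted p under 0.05. The 7 summed to 60.7 to 88.6 CPM with Cpd10 and 70.7 to 103 CPM with DMSO, and the 6 T cell markers to 0.617 to 1.01 CPM with Cpd10 and 1.05 to 1.71 CPM with DMSO.

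Some plasma cell markers differed between the library sets. Sdc1, a plasma cell surface proteoglycan, stood at 37.7, 7.41 and 6.87 CPM in Cpd10 A, B and C, against 39.2, 10.7 and 87.7 CPM in DMSO A, B and C. The 6 markers (Sdc1, Prdm1, Xbp1, Jchain, Tnfrsf17 and Slamf7) summed to 1903 to 2574 CPM with Cpd10 and 1831 to 4107 CPM with DMSO, with DMSO C highest. Jchain, the joining chain of secreted antibodies, stood at 732, 262 and 224 CPM with Cpd10, against 729.5, 407 and 2057 CPM with DMSO. Xbp1, a factor of antibody-secreting cells, did not follow the sets, at 1391, 1275 and 1309.6 CPM with Cpd10, against 1026.5, 1075 and 1523 CPM with DMSO. The median log2 fold change of the 6 was -0.95, with 5 of 6 negative, and -0.27 with the set in the model. None of the 6 was called by edgeR, DESeq2 or limma-voom and 0 had an unadjusted p under 0.05. The part of these markers, and of Ms4a1, Ptprc and Adgre1, in the class II differences was not tested.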

How the data were processed

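RNA was measured in 6 libraries, 3 with Cpd10 and 3 with DMSO. The authors deposited 1 table of raw integer counts for each gene and library. Per the submitters' processing notes, the build was GRCm38 and the tools DESeq2, featureCounts 2.0.6 and STAR 2.7.10a; the annotation and strand setting are not given in the sources used here. Identifiers were matched to GENCODE M21 (54723 of 54838 found), whose symbols, coordinates and exon lengths are used.

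Counts were tested with edgeR 4.0.16 in R 4.3.3 (TMM, filterByExpr, robust quasi-likelihood fit, group as the only term; 15136 genes tested), with Benjamini-Hochberg adjustment over all tested genes and a threshold of 0.05. The SE was taken as the size of the log2 fold change over the root of its F statistic. Log2 CPM used a prior count of 2. The procedure was tested on simulated data with the same spread setting for every gene and no library sets. That test therefore does not show how the procedure handles the sets found here. Alternatives were DESeq2 1.42.0, limma-voom (limma 3.58.1), RLE size factors, no filter, a replicate block, the library set as a term, and leaving out each library.

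The 10 genes, the gene lists and the alternatives were chosen with earlier results of these data known. All 10 are named. Of each pathway list every called gene and up to 4 others with the smallest p are named, with March1, Irf4, Prdm1 and Foxo1 always. Genes like Ciita are the 5 with the highest r among genes that averaged at least 10 CPM, without clone names and immunoglobulin segments. By chi-square per degree of freedom, replicate libraries differed beyond sampling noise, so none was treated as a duplicate. The value was 12.3 for Cpd10 B and Cpd10 C, the most alike pair within a group. The other pairs within a group ran from 67.7 (DMSO A and DMSO C) to 176 (DMSO B and DMSO C). Whether Cpd10 B and Cpd10 C are repeats of the same culture was not tested, and the fits counted them as separate libraries. At these depths the spread between libraries, not counting error, sets the precision.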

Additional observations from a re-analysis of the deposited data

How the results depend on the processing

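Of 140 values of the 10 genes under other settings, none changed sign. Of all tested genes, 56 were called; without the filter 194, by DESeq2 356, and with the library set as a term 599, and when 1 library was left out 0 to 100. Of the 10 class II genes, 1 was called; without the filter and by DESeq2 4 each, with the set term 6, with the replicate block 0, and with 1 library left out 0 to 1. Of the other pathway genes 1 was called, beside 0.370% of all tested genes. Without the filter and by DESeq2 it was 3 each, beside 0.773% and 1.42% of all genes. With the set term it was 7, beside 3.96% of all genes, and with 1 library left out 0 to 2. RLE size factors gave 59 calls, and limma-voom gave 46. With the replicate block 49 genes were called, and the log2 fold change of Ciita was -1.43. Same-lettered libraries had deviations from their group mean that correlated at 0.309 (A), 0.432 (B) and -0.315 (C). Cpd10 A and Cpd10 C each correlated better with another letter. Deviations within groups of 3 also carry the library sets, so these values cannot decide whether the letters pair the samples. The cause of the changes between settings was not tested.

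Among the pathway genes that the naming rule picked, and not counting the rest of each list, 5 uncalled ones changed sign: within the set of DMSO B, Nfyc (0.13), Ctss (0.049) and Cd83 (0.085); within the other set, Crebbp (0.043) and Ifi30 (-0.064); and Cd83, which ran from -0.085 to 0.042 when 1 library was left out (0.031 without Cpd10 A and 0.042 without DMSO C). With the longest transcript as gene length, H2-Ab1 (1935 CPM per kilobase in DMSO) stood above H2-Eb1 (1099.99), H2-Ob (106) above H2-DMb1 (91.7), and Ciita (61.9) above H2-Oa (51.6). H2-Ob and H2-Oa, which by the exon union differed by less than their spread in DMSO, then stood at 106 ± 22.1 and 51.6 ± 8.32.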
